A study of Homo sapiens with 5 samples.

Results

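CD180, a surface protein related to the Toll-like receptors, was examined together with its partner LY86, 6 Toll-like receptors, the TLR4 partner LY96 and the adaptor MYD88. These are 10 genes, of which 9 had a row with a single gene symbol among the 18418 genes measured, and TLR5 was not analysed here. They were gathered around CD180, which had been picked from these same values because it was lower when TIP-1 was silenced, and each gene was represented by its brightest row. The choice of CD180 therefore used the comparison itself, and its difference is given as a description with no test. Each of the 9 genes had 1 row, so the choice of the brightest row left none out.

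The samples were D54 cells, an established human glioma cell line, each measured on 1 array. In 3 of them TIP-1 was silenced, each with a different shRNA (shRNA 1, 2 and 3), and the other 2 were independent clones carrying a control shRNA (control 1 and 2). A short hairpin RNA (shRNA) lowers the messenger of the gene it matches, and TIP-1 is a small PDZ domain protein encoded by TAX1BP3. All cells were transfected with an shRNA, untransfected cells were not analysed here, and nothing labels the arrays by culture or day. Error terms therefore cover differences among shRNAs and between the control clones.

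Toll-like receptors recognise microbial molecules through leucine-rich repeats outside the cell and signal through a TIR domain inside it. TLR4 detects lipopolysaccharide (LPS) together with LY96, also called MD-2. CD180 has similar repeats and pairs with LY86, also called MD-1, but lacks a TIR domain; it is best known from B cells and myeloid cells. Most Toll-like receptors pass their signal to MYD88, which activates NF-kB, whereas TLR3 uses the adaptor TICAM1.

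The 250 bases before the annotated start of the gene are shown for CD180, the member with the largest difference in size, for its relative TLR4, and for MYD88, the other member whose groups lay apart by more than 0.2 log2 units. They are RefSeq sequences of build GRCh38.p14, read 5′ to 3′ in the direction of the gene. Capitals mark matches to any of the motifs listed after them.
CD180, chr5:67196800-67197049, minus strand: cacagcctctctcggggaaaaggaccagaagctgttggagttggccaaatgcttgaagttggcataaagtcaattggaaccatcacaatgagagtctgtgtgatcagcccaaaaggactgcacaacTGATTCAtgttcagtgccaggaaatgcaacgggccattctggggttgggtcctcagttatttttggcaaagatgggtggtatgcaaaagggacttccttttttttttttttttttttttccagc
MYD88, chr3:38138411-38138660, plus strand: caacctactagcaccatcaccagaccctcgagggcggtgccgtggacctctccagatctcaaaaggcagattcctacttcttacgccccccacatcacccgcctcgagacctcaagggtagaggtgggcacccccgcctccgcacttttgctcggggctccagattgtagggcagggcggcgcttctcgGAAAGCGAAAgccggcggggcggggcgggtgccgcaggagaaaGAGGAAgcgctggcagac
TLR4, chr9:117704153-117704402, plus strand: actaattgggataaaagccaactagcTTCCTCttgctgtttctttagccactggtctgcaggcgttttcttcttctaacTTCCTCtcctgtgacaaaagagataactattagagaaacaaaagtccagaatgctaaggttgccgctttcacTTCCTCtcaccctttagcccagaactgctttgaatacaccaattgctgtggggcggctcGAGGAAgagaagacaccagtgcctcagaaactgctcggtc
The motifs were the interferon response core (GAAA, any 2 bases, GAAA), the PU.1 core GAGGAA and the AP-1 motif TGANTCA, searched on both strands, and no match shown overlapped another. PU.1 is a transcription factor of myeloid and B cells, and AP-1 is the family of FOS and JUN. The CD180 window held 1 AP-1 match, from 124 to 118 bases before the start, and neither of the other motifs. AP-1 matches were found in 6.60% of the 27305 windows of the same length. The TLR4 window held 4 PU.1 core matches, a motif present at least once in 23.4% of windows and 4 or more times in 0.0513%. The MYD88 window held the interferon response core from 61 to 52 bases before the start, found in 3.07% of windows, and 1 PU.1 core match. GC content was 44.8% for CD180, 64.4% for MYD88 and 46.4% for TLR4, against a median of 58% over all windows. These matches describe the letters only.

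The silenced gene gives the check of the labels. TAX1BP3 had a log2 signal of 9.81, 9.61 and 9.55 in shRNAs 1, 2 and 3, against 12.05 and 12.10 in controls 1 and 2. It shares its row with a read-through transcript, and its reduction was 5.35-fold (log2 difference -2.42, SE 0.10, limma adjusted p = 0.011). It was the 1 row of 33297 past an adjusted p of 0.05, which is 0.003% of rows. Leaving aside CD180, none of the other 8 genes described here passed (limma), and 1 of them, MYD88, had an unadjusted p under 0.05, as did 6.95% of all rows. For any 1 gene the exact permutation p of 3 arrays against 2 is at least 0.1, and none is given. Array medians were 7.95, 7.90 and 7.88 with TIP-1 shRNA, against 7.96 and 7.98 with control shRNA. Lower quartiles were 6.42, 6.40 and 6.35 with TIP-1 shRNA, against 6.45 and 6.44 with control shRNA. Pearson correlations across rows were between 0.991 and 0.997 for the 10 pairs of arrays.

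CD180 read 6.09, 5.69 and 5.84 in shRNAs 1, 2 and 3, against 6.70 and 7.45 in controls 1 and 2. All 3 arrays with TIP-1 shRNA lay below both controls, with 0.61 log2 units between the nearest arrays of the groups. The mean was 5.87 ± 0.20 (SD, n = 3) with TIP-1 shRNA and 7.07 ± 0.53 (SD, n = 2) with control shRNA. The log2 difference was -1.20 (SE 0.23), or 2.30-fold lower. In order of level, shRNA 2, shRNA 3 and shRNA 1 lay within 0.40 of each other, control 1 came next, and control 2 was highest.

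The controls themselves differed by 0.75, more than the gap between the groups. Measured against the control mean, CD180 stood at -0.99 (shRNA 1), -1.38 (shRNA 2) and -1.23 (shRNA 3). Its mean difference was -0.82 without control 2 and -1.58 without control 1. CD180 lay below the lower quartile of all rows in each array with TIP-1 shRNA and above it in both controls. The files hold no detection call, so at this dim level a lower signal could not be told from absence, and fewer cells with the transcript could not be told from less of it per cell. By size of difference it was number 8 from the lowest of 18418 genes.

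LY86, the secreted partner that helps CD180 reach the cell surface, read 5.44, 5.58 and 5.44 with TIP-1 shRNA, against 5.56 and 5.50 with control shRNA. The groups overlapped. Its log2 difference was -0.05 (95% interval -0.26 to 0.17, limma adjusted p = 0.90), and 0.01 after median centring. Its signal lay below the lower quartile in all 5 arrays.

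TLR4, the relative whose extracellular part CD180 resembles, read 8.90, 9.15 and 9.58 in shRNAs 1, 2 and 3, against 9.23 and 9.47 in controls 1 and 2. shRNA 3 gave the highest value of the 5 arrays and shRNA 1 the lowest, so the controls lay inside the range of the TIP-1 shRNA arrays. The log2 difference was -0.14 (SE 0.20, 95% interval -0.63 to 0.35, limma adjusted p = 0.87). It was -0.32 without shRNA 3 and 0.01 without shRNA 1, so the shRNAs did not share a direction. CD180 and TLR4 thus differed from control by -0.99 and -0.45 in shRNA 1, by -1.38 and -0.20 in shRNA 2, and by -1.23 and 0.23 in shRNA 3.

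LY96, which binds the lipid part of LPS within the TLR4 complex, read 8.10, 8.32 and 8.91 in shRNAs 1, 2 and 3, against 7.98 and 8.05 in controls 1 and 2. All 3 arrays with TIP-1 shRNA lay above both controls, but the lowest of them by only 0.05. The log2 difference was 0.42 (SE 0.23, 95% interval -0.14 to 0.99, limma adjusted p = 0.72). shRNA 3 held most of it, since the difference was 0.19 without that array. LY96 was the member in which shRNA 3 stood at least 0.5 above every other array.

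**Figure D1:**
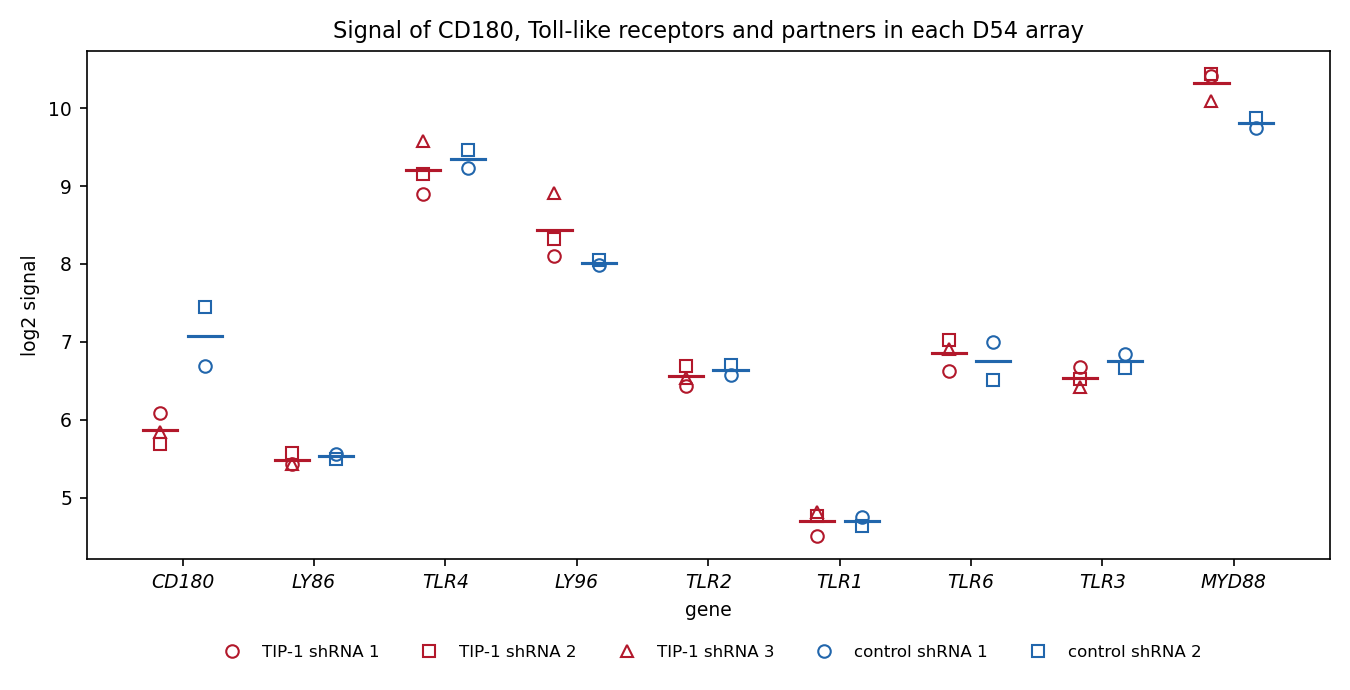
Log2 signal (vertical axis) of the 9 measured genes (horizontal axis) in each array, with TIP-1 shRNA arrays in red at the left of each gene and control shRNA arrays in blue at the right; short lines are group means. CD180 lies between 5.69 and 6.09 with TIP-1 shRNA, below both controls, MYD88 lies between 10.09 and 10.44, above both, and for 6 genes the groups overlap.

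MYD88, the adaptor shared by most Toll-like receptors and by the interleukin-1 receptor, read 10.42, 10.44 and 10.09 in shRNAs 1, 2 and 3, against 9.75 and 9.87 in controls 1 and 2. All 3 arrays with TIP-1 shRNA lay above both controls, by at least 0.22. The mean was 10.32 ± 0.20 (SD, n = 3) with TIP-1 shRNA and 9.81 ± 0.09 (SD, n = 2) with control shRNA. The log2 difference was 0.51 (SE 0.13, 95% interval 0.19 to 0.82), or 1.42-fold higher, and it did not pass the test over all rows (limma adjusted p = 0.71). MYD88 was number 133 from the highest of 18418 genes by difference. The excess over the control mean was 0.61 and 0.63 in shRNAs 1 and 2 and 0.28 in shRNA 3. Leaving out any single array gave a difference between 0.44 and 0.62. Its signal was above the median of all rows in every array.

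TLR2 detects bacterial lipoproteins as a pair with TLR1 or TLR6. TLR2 read 6.43, 6.70 and 6.54 with TIP-1 shRNA, against 6.58 and 6.70 with control shRNA (log2 difference -0.08, 95% interval -0.35 to 0.18). TLR1 read 4.51, 4.77 and 4.81 with TIP-1 shRNA, against 4.76 and 4.64 with control shRNA, a difference of 0.00 (-0.29 to 0.29; -0.02 after quantile normalization), and it lay below the lower quartile in all 5 arrays. TLR6 read 6.63, 7.02 and 6.91 with TIP-1 shRNA, against 7.00 and 6.51 with control shRNA (0.10, -0.34 to 0.54). The groups overlapped for all 3 genes. The TLR6 controls differed by -0.49 (control 2 minus control 1), more than its TIP-1 shRNA arrays ranged (0.39), and its difference was 0.34 without control 1 and -0.14 without control 2. The limma adjusted p was 0.85 for TLR2, 0.999 for TLR1 and 0.90 for TLR6.

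TLR3, the endosomal sensor of double-stranded RNA, read 6.67, 6.53 and 6.42 in shRNAs 1, 2 and 3, against 6.85 and 6.66 in controls 1 and 2. shRNA 1 lay just above control 2, so the groups overlapped by a single array. The log2 difference was -0.21 (95% interval -0.48 to 0.06, limma adjusted p = 0.71), and between -0.30 and -0.12 when 1 array was left out.

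Of the 8 genes other than CD180, 2 had separated groups, LY96 and MYD88, both higher. That is 25% of these genes, near the 26.5% of all genes. Over all genes, 12.5% had all 3 TIP-1 shRNA arrays above both controls and 14.1% had them below. Of the 8 differences, 4 were above 0 and 4 below, with a median of -0.02 against -0.01 over all genes. For 7 of the 8 the 95% interval included 0, and MYD88 was the exception. These intervals are not adjusted for the number of rows, and over all rows 6.95% had an unadjusted p under 0.05 (limma).

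**Figure D2:**
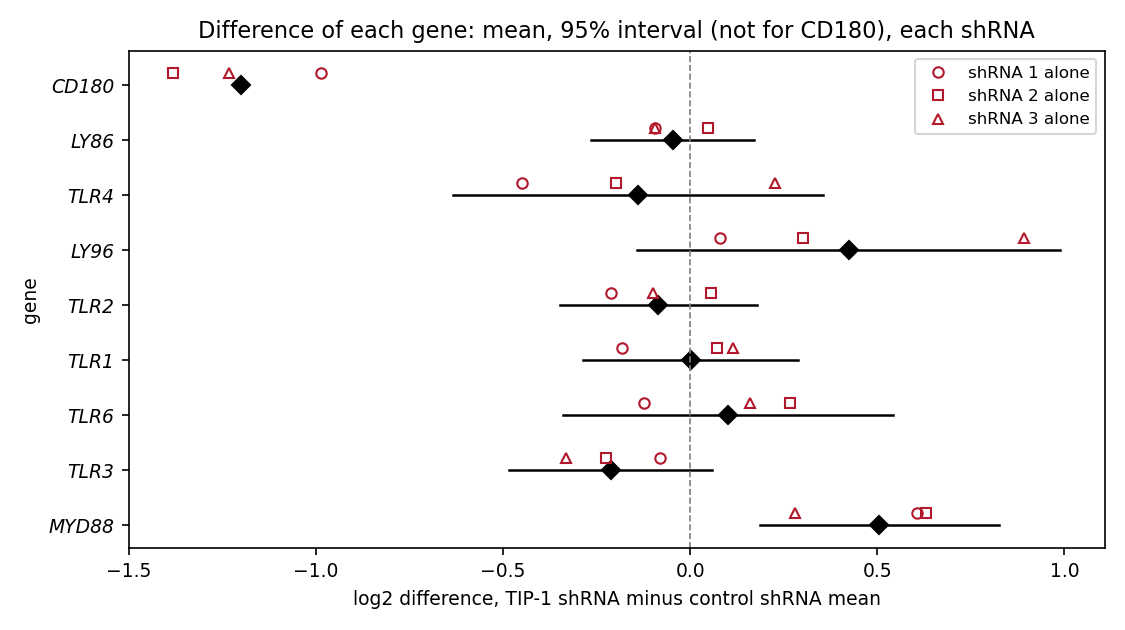
Log2 difference (horizontal axis) of each of the 9 genes (vertical axis), TIP-1 shRNA minus the control shRNA mean: diamonds are the mean difference, lines limma's 95% interval (not drawn for CD180, which was picked on this difference), and open red symbols above them are shRNA 1, 2 and 3 alone. CD180 is at -1.20 and MYD88 at 0.51 with the 3 shRNAs on 1 side of 0, while those of TLR4 run from -0.45 to 0.23.

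The genes with the profile most like that of CD180 were found by centring each gene on its own mean and taking the root mean square distance over the 5 arrays. The closest of 18417 were PDCD1LG2, the ligand PD-L2 of the receptor PD-1 (distance 0.20 log2 units), VEPH1 (0.20), the protein kinase A inhibitor PKIA (0.25), EPB41L4B (0.25) and the synaptic adhesion protein NLGN1 (0.26). PDCD1LG2 read 9.13, 8.57 and 9.13 with TIP-1 shRNA, against 9.70 and 10.14 with control shRNA. As for CD180, its lowest array was shRNA 2 and its highest control 2. Every gene outside the 5 closest was farther away by construction. The members ranged from TLR3 at 0.58 and TLR2 and TLR4, both at 0.62, to MYD88 at 0.88 and LY96 at 0.89. With 5 arrays this likeness follows the group difference for the most part.

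**Figure D3:**
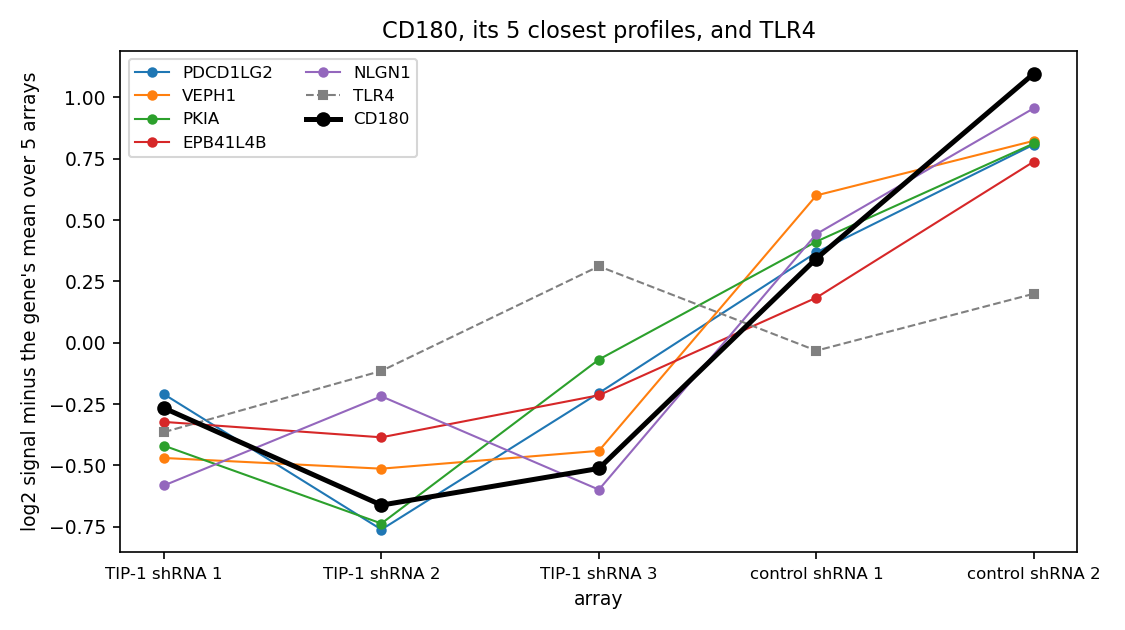
Log2 signal minus each gene's own mean over the 5 arrays (vertical axis) for CD180 in black, its 5 closest genes in colour and TLR4 in grey with dashes, across the TIP-1 shRNA and control shRNA arrays (horizontal axis). The coloured genes and CD180 are lowest in TIP-1 shRNA arrays and highest in control 2, while TLR4 is highest in shRNA 3.

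The measured genes on either side of CD180 in RefSeq's order were MAST4 and LOC401191 before it and PIK3R1 and LINC02198 after it. Their log2 differences were -0.24 (SE 0.12), 0.10 (SE 0.12), -0.29 (SE 0.26) and -0.17 (SE 0.08), and none passed. PIK3R1, a regulatory subunit of PI3 kinase, read 9.79, 9.77 and 10.46 with TIP-1 shRNA, against 10.03 and 10.56 with control shRNA.

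Of the other Toll-like receptors, 3 of 4 were measured and none passed. TLR9, the sensor of unmethylated CpG DNA, read 8.52, 8.30 and 8.13 with TIP-1 shRNA, against 8.45 and 8.70 with control shRNA (log2 difference -0.26, SE 0.14). TLR7 and TLR8, sensors of single-stranded RNA, differed by -0.12 (SE 0.10) and -0.05 (SE 0.09). All 3 overlapped between the groups.

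The wider pathway was described with 9 lists of textbook members, 107 measured genes in all. None passed over all rows (limma), and 7 had an unadjusted p under 0.05, 2 higher and 5 lower, which is 6.54% against 6.95% of all rows. The median difference over these genes was -0.03. Among 9 genes of LPS binding and receptor trafficking (median -0.04), 2 had a difference above 0. UNC93B1, which carries nucleic acid-sensing Toll-like receptors to endosomes, read 9.94, 9.92 and 9.99 with TIP-1 shRNA, against 9.56 and 9.75 with control shRNA (difference 0.29, SE 0.09). RAB11A, a GTPase of recycling endosomes, differed by 0.12 (SE 0.08). The LPS-binding protein LBP differed by -0.23 (SE 0.09) and the co-receptor CD14 by -0.06 (SE 0.11).

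The 21 adaptors and kinases had a median difference of 0.01, with 11 above 0 and 10 below. All 3 TIP-1 shRNA arrays lay above both controls in 6 of the 21 and below both in 3. Over all genes these shares were 12.5% and 14.1%, and the contrast was not tested. TBK1, the kinase that phosphorylates IRF3, differed by 0.24 (SE 0.10), CHUK, a subunit of the IkB kinase, by 0.21 (SE 0.09) and the ubiquitin ligase PELI1 by 0.31 (SE 0.15). TICAM1, the TLR3 adaptor, differed by 0.07 (SE 0.08). Among 12 transcription factors (median 0.02), IRF3 differed by 0.21 (SE 0.11), IRF5 by 0.16 (SE 0.11) and IRF8 by 0.12 (SE 0.10). Among 13 negative regulators (median 0.05), the deubiquitinase TNFAIP3 differed by -0.38 (SE 0.21), SOCS1 by -0.23 (SE 0.10) and IL1RL1 by -0.11 (SE 0.09).

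The 24 genes that Toll-like receptors commonly induce had a median difference of -0.04, with 9 above 0 and 15 below. The chemokine CXCL8 read 7.30, 7.21 and 7.17 with TIP-1 shRNA, against 7.82 and 7.70 with control shRNA (difference -0.54, SE 0.09, limma adjusted p = 0.71). CCL4 read 5.11, 5.00 and 4.95 with TIP-1 shRNA, against 5.54 and 5.44 with control shRNA (-0.47, SE 0.09). It was dim, below the lower quartile of all rows in all 5 arrays. CCL3 differed by -0.27 (SE 0.12), with only 0.06 between its groups. In the whole list 7 of 24 genes had separated groups, 3 higher and 4 lower, or 29.2% against 26.5% of all genes. IL6, named after its value was seen, differed by 0.01 (SE 0.09).

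All 9 measured genes for endogenous ligands of TLR2 and TLR4 had a difference below 0 as deposited, with a median of -0.18, against 52.4% of all genes below 0. Median centring adds 0.06 to each difference, after which 7 of the 9 (median -0.12) and 35.1% of all genes were below 0. Fibronectin FN1 was already known from these values to be lower, so its entry in the list is not independent. It read 7.71, 8.20 and 8.73 with TIP-1 shRNA, against 9.16 and 10.60 with control shRNA (difference -1.67, SE 0.46). Tenascin TNC differed by -0.28 (SE 0.09) and S100A9 by -0.18 (SE 0.11). The list median was -0.05 without shRNA 3. Among 7 genes of CD180 signalling in B cells (median -0.00), the exchange factor VAV1 read 8.34, 8.31 and 8.46 with TIP-1 shRNA, against 8.11 and 8.11 with control shRNA (0.26, SE 0.09), while BTK and PIK3CD differed by -0.13 (SE 0.09) and -0.12 (SE 0.08).

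**Figure D4:**
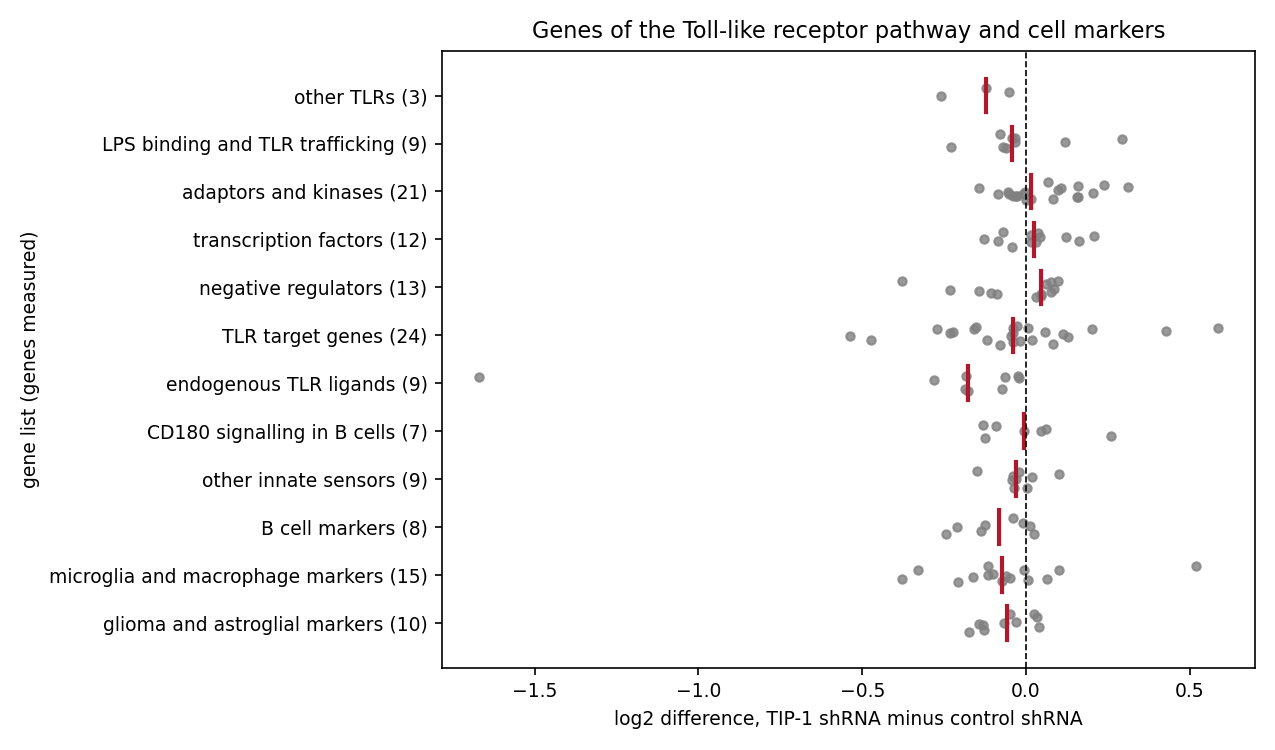
Log2 difference (horizontal axis, TIP-1 shRNA minus control shRNA) of each gene (grey points) in 12 lists (vertical axis, with the number of genes measured); red lines are list medians. Medians lie between -0.18 and 0.05, and the point near -1.67 is FN1.

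shRNA 3 stood apart from the other arrays over all genes, not only in genes downstream of the receptors. It was at least 0.5 log2 units above every other array in 246 of 18418 genes. That count was 3 for shRNA 1, 4 for shRNA 2, 18 for control 1 and 39 for control 2. In 75 genes it was as far below every other array, as control 2 was in 74. The fit with array weights gave shRNA 3 the lowest weight (0.40). In 4 of the 107 pathway genes it was at least 0.5 above all other arrays, or 3.74%, against 1.34% of all genes. These 4, named after their values were seen, were the NF-kB subunit gene NFKB2 (10.14 against 8.89 and 8.85 in shRNAs 1 and 2 and 9.52 and 9.15 in the controls), the adhesion molecule ICAM1 (11.00, with 10.05 in the next highest array), the chemokine CCL2 (9.50, next 8.41) and serum amyloid SAA1 (5.89, next 5.14). It was 1 array, so this carries no test. In 0 of the 107 pathway genes was shRNA 3 at least 0.5 below all other arrays. Several target genes were nevertheless at their lowest of the 5 arrays in shRNA 3. Among them, also named after their values were seen, were IL6 (6.45), CXCL8 (7.17), IL1B (6.36) and TNF (6.60). In shRNA 3, LY96 and TLR4 were at their highest and MYD88 was at its lowest among the 3 shRNAs.

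Because CD180 and LY86 are best known from B cells and myeloid cells, their markers were set beside these values. No B cell marker passed (8 of 9 measured, median difference -0.08). Their summed linear signal was 1203 to 1291 with TIP-1 shRNA and 1297 and 1429 with control shRNA. The brightest, PAX5 and CD22, differed by -0.24 (SE 0.10) and -0.04 (SE 0.16), and BLK and FCRLA by -0.21 (SE 0.14) and -0.13 (SE 0.09). MS4A1 (CD20), a defining marker, read 5.43, 5.54 and 5.26 with TIP-1 shRNA, against 5.56 and 5.28 with control shRNA, below the lower quartile.

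None of the 15 microglia and macrophage markers passed (median -0.07), with 4 differences above 0 and 11 below. Their summed signal was 2324 to 2759 with TIP-1 shRNA and 2569 and 2755 with control shRNA. Of the 15, 13 averaged below the median of all rows and 7 below the lower quartile. The brightest were TYROBP (difference -0.21, SE 0.11) and SPI1, which encodes PU.1 (-0.00, SE 0.10). CX3CR1 differed by -0.38 (SE 0.11) and LAPTM5 by 0.52 (SE 0.14). Log2 signals have no true zero, so no marker could be called absent, and the part of other cells in the CD180 values was not tested. Of the 10 glioma and astroglial markers, 6 averaged below the median of all rows and 3 below the lower quartile. Vimentin VIM was bright, with means of 13.93 with TIP-1 shRNA and 13.98 with control shRNA. The hyaluronan receptor CD44 was also bright, at 13.80 with TIP-1 shRNA and 13.76 with control shRNA. Means over all arrays were 7.36 for OLIG2, 7.15 for SOX2, 6.36 for FABP7 and 6.27 for S100B. EGFR averaged 11.13 with TIP-1 shRNA and 11.26 with control shRNA, and the stem cell filament NES 7.86 with TIP-1 shRNA and 7.98 with control shRNA. The astrocyte water channel AQP4 was dim, at 5.54 with TIP-1 shRNA and 5.71 with control shRNA. GFAP, which defines astrocytes, read 8.14, 8.06 and 7.86 with TIP-1 shRNA, against 8.04 and 8.14 with control shRNA, near the array medians.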

How the data were processed

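RNA from 5 D54 samples was measured on Affymetrix whole-transcript arrays. The deposited values are log2 signals, for which the authors used the Affymetrix Exon Array Computational Tool, per the series' design text; its background correction and normalization steps are not stated there or in the labels. That text speaks of the exon array, while the row identifiers fit a gene-level annotation, so each row was read as 1 transcript. Of 33297 rows, 19460 had 1 symbol, 1754 several and 12083 none; 19429 were matched to RefSeq by gene identifier. All rows were fitted together as deposited by limma 3.58.1 (two-sided lmFit and eBayes test, R 4.3.3), p-values were adjusted by Benjamini-Hochberg over all rows, and the threshold was 0.05. Differences are log2 signals of TIP-1 shRNA minus control shRNA. Members and lists were chosen with earlier results of these data known. Every member was named, with 3 genes of smallest unadjusted p per list, the 2 brightest markers, the 5 closest profiles, the nearest genes to CD180, and a few added after their values were seen. Data were simulated for this comparison (33297 rows, 10 sets, 200 changed rows each). Of rows changed by 0.5 log2 units 2.2% were recovered, and of those changed by 1, 68.6%, with 6.3 false calls per set. The simulated noise was independent between arrays and changes reached 3 log2 units, so these shares need not hold for the measured rows. VEPH1, for instance, differed by -1.19 (SE 0.10) and did not pass (limma adjusted p = 0.13). The number of arrays limits the precision.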

Additional observations from a re-analysis of the deposited data

How the results depend on the processing

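Leaving aside CD180, no member passed under any alternative run. The runs were quantile normalization, median centring, bright rows only, a trended robust fit, array weights, the replicate block, and leaving out 1 array. The smallest adjusted p among the other members was 0.20 (limma, MYD88 with the replicate block). For MYD88 it was 0.95 (limma) without shRNA 2. With all arrays CD180 differed by -1.26 to -1.14, and by -1.58 to -0.82 when 1 array was left out; it was dropped among bright rows only. Separated members, CD180 included, numbered 3, but 2 among bright rows only, which drop CD180, and 4 to 5 when 1 array was left out, as fewer arrays separate more readily. Rows past the threshold were 1, but 2 with array weights, 15 with the replicate block and 0 to 6 when 1 array was left out. shRNA 3 has no partner under the block, so blocked differences equal those without shRNA 3, a fit with 6 such rows. The TAX1BP3 call ended when control 1 (adjusted p = 0.386), control 2 (0.387) or shRNA 2 (0.129) was dropped, with differences of -2.45, -2.39 and -2.39; over all 5 such fits they ran from -2.50 to -2.37. Fits with a lone control assume that it varies as the other arrays do. Deviations of arrays sharing a number correlated at 0.049 and -0.053, so numbers were not taken as pairs; with the replicate block CD180 differed by -1.18. Of 91 values of the other members, 8 changed sign. TLR1, near 0, was -0.0181 with quantile normalization, -0.0549 with the block, and -0.0592 (without control 2) to 0.0935 when 1 array was left out. LY86 was 0.0141 with median centring. With 1 array left out TLR6 ran from -0.142 (without control 2) to 0.344, and TLR4 from -0.323 to 0.0147 (without shRNA 1). The causes were not tested. Of 143 list medians, 10 moved by more than the spread between arrays and 29 changed sign. Averaging all rows of a gene altered no member, as each had 1 row.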

Other observations

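Of 9 other innate immune sensors, all were measured and 0 passed the threshold (limma), as did 0 at an unadjusted p under 0.05. Their median difference was -0.03, with 3 above 0 and 6 below. The peptidoglycan sensor NOD1 read 8.11, 8.16 and 8.24 with TIP-1 shRNA, against 8.11 and 8.03 with control shRNA (difference 0.10, SE 0.09). The inflammasome sensor NLRP3 differed by -0.15 (SE 0.16) and the DNA sensor CGAS by -0.04 (SE 0.09). The RNA sensors RIGI and IFIH1, named after their values were seen, read 7.81 and 6.27 in shRNA 3, their highest array. They read 7.00 and 5.47 in shRNA 1, their lowest. NLRP3 and STING1, set beside them in the same way, were instead at their lowest in shRNA 3 (7.18 and 10.77).

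PTPRC, the leukocyte marker CD45, was also named after its values were seen. It read 8.39, 7.75 and 6.84 in shRNAs 1, 2 and 3, against 8.65 and 7.32 in controls 1 and 2, so it ranged widely within both groups.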
